A study of Sorghum bicolor with 177 samples.

Results

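Roots of sorghum (Sorghum bicolor BTx623, the reference line) were compared 1 h after transfer to a solution without added zinc and 1 h after transfer to the control solution. A gene entered the comparison when its mean level reached 5 TPM (a transcript abundance scaled for gene length and library total) in at least one of these 2 groups. That rule took 15922 of the 34129 genes in the table. Differences are log2(mean TPM + 1) in zinc limitation minus the same in control, which understates the change of genes at low TPM. A value of 1 or -1 on this scale is called 2-fold.

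Seedlings were moved to hydroponics 7 days after germination and kept for 3 weeks in the control solution before they were distributed over 5 solutions. The control solution held 1 µM ZnSO4 and 50 µM NaFe(III)EDTA. Zinc limitation (ZnLim) held 0 µM ZnSO4 and 50 µM NaFe(III)EDTA, and zinc excess (ZnEx) held 100 µM ZnSO4 with the same iron. Iron limitation (FeLim) held 1 µM ZnSO4 with 0 µM NaFe(III)EDTA, and iron excess (FeEX) held 1 µM ZnSO4 with 1 mM NaFe(III)EDTA. All plants were BTx623, and control roots were moved to fresh solution like the others. Roots were sampled before the transfer (0 h), at 1 h and at 2, 4, 7, 14 and 21 d. Each group at 1 h had 3 plants, and the values are the authors' means over them. The 1 h comparison itself therefore has no spread between plants and no test, and every value below that is described as higher or lower is a difference between 2 means.

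Plants take up zinc with ZIP proteins, a family of metal importers in the plasma membrane and in inner membranes. In Arabidopsis the factors bZIP19 and bZIP23 act as zinc sensors that switch on ZIP genes and nicotianamine synthase genes when zinc runs short. Nicotianamine binds zinc and iron for transport within the plant, and grasses also use it to make the phytosiderophores that carry iron into the root.

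The difference after 1 h was small for most genes. Of the 15922 genes, 14556 (91.4%) lay within 1.5-fold of control, and the median difference was -0.08 with an SD over genes of 0.37. A total of 116 genes (0.729%) were at least 2-fold higher and 277 (1.74%) at least 2-fold lower, together 2.47%. The counts of each gene list below are to be read beside these shares of all genes. With the columns rescaled to a common median log ratio the split was 161 higher and 215 lower. The same count in the zinc-limited roots at 2 d was 1787 higher and 900 lower, and at 7 d it was 227 higher and 456 lower. The median level of the 116 higher genes was 7.34 TPM in control and 19.4 TPM in zinc limitation. The 277 lower genes had a median of 16.1 TPM in control and 5.18 TPM in zinc limitation. Levels were often low, since 26 of the higher and 86 of the lower genes stayed under 10 TPM in both columns. Just past 2-fold on the higher side lay a CYP86A4-like gene (Sobic.006G177000) at 1.004 and Sobic.009G076300 at 1.005, and just short of it Sobic.001G493001 at 0.997 and a MtN3-like gene (Sobic.003G377700) at 0.994. On the lower side MEE14-like Sobic.001G078200 at -1.001 and ALDH11A3-like Sobic.007G140700 at -1.002 counted, and Sobic.007G154701 at -0.999 and RPA2-like Sobic.010G243100 at -0.998 did not.

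**Figure D1:**
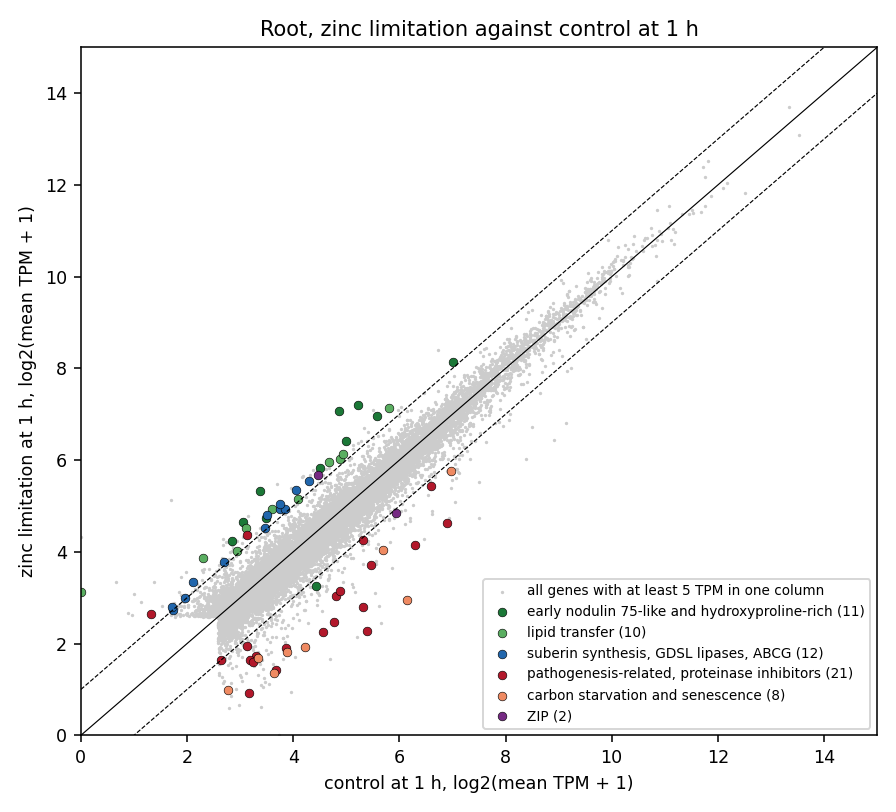
Level of each of the 15922 genes in control (x axis) and zinc limitation (y axis) at 1 h, both as log2(mean TPM + 1). The solid line marks equal levels and the dashed lines mark 2-fold. Coloured points are the genes past 2-fold in the named gene lists, with their number in the legend. Most genes lie close to the line. Coloured points lie outside the dashed lines because they were chosen so. Above lie 10 of 64 early nodulin 75-like and hydroxyproline-rich, 10 of 58 lipid transfer and 5 of 13 suberin genes. Below lie 1 of those 64, 13 of 65 pathogenesis-related and 8 of 34 starvation genes. Above also lie 2 pathogenesis-related genes.

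The photosynthesis and Casparian strip markers went with the labels, while the root hair markers did not separate root from leaf. Summed over 39 photosystem, light-harvesting and Rubisco genes, the level was 117 TPM in control and 78.8 TPM in zinc limitation, while the 26 leaf columns held from 97910 to 352500 TPM. The Casparian strip markers, 7 genes of the root endodermis of which the 5 at 5 TPM are all MYB36-like, summed to 147 TPM in control and 123 TPM in zinc limitation, and to at most 7.78 TPM in leaf. Root hair markers summed to 53.5 and 45.4 TPM in the same order, and to between 17.2 and 56.2 TPM in leaf. Root cap and meristem markers summed to 153 and 135 TPM, and to between 30.6 and 75.2 TPM in leaf. Of the meristem list, the SCR-like Sobic.009G177100 and the SMB-like Sobic.010G155000 were listed at 0 in both columns. In bulk tissue, fewer cells of a type and less RNA per cell cannot be told apart.

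Zinc uptake genes were a minor part of the difference at 1 h. Of 13 ZIP-family genes that reached 5 TPM, 1 was at least 2-fold higher and 1 at least 2-fold lower, and their median was 0.03. The higher one was the ZIP4-like Sobic.009G073100. Its mean was 21.3 TPM in control and 50.5 TPM in zinc limitation, a difference of 1.21, and it was at 22 TPM in iron limitation, 32.2 TPM in iron excess and 16 TPM in zinc excess. Zinc limitation was thus the highest and zinc excess the lowest of the 5 columns at 1 h, and the level before the transfer was 27.3 TPM. The ZIP2-like Sobic.003G443700 stood at 44.5 TPM in control and 88.3 TPM in zinc limitation, a difference of 0.97 that is just short of 2-fold. Iron limitation was nearly as high for this gene, at 82.7 TPM, while iron excess was at 37.1 TPM and zinc excess at 58.5 TPM. The ZIP1-like Sobic.002G083200 was at 5.52 TPM in control and 9.97 TPM in zinc limitation. Iron limitation, iron excess and zinc excess held 7.60, 7.52 and 6.34 TPM of it, so that zinc limitation was again the highest column. The ZIP5-like Sobic.007G064900 was at 14.3 TPM in control and 21.3 TPM in zinc limitation, with 20.0 TPM in iron limitation and 12.5 TPM in zinc excess.

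The ZIP gene that was lower was ZIP10-like. Sobic.001G142900 held 60.5 TPM in control and 27.9 TPM in zinc limitation, with 16.9 TPM in iron limitation, 22.1 TPM in iron excess and 69.4 TPM in zinc excess, against 17.1 TPM at 0 h. It was high in control and zinc excess and low in the other 3 columns. The other ZIP10-like genes were close to control, with Sobic.001G156800 at 64.9 TPM in control and 66.3 TPM in zinc limitation and Sobic.001G142800 at 9.79 and 9.82 TPM. Sobic.001G142900 and Sobic.001G142800 carry neighbouring identifiers, and reads could be split between near-identical copies. The remaining family members were within 1.5-fold of control, among them the ZIP11-like Sobic.001G339600 at 32.9 TPM in control and 41.2 TPM in zinc limitation, and the IAR1-like Sobic.007G153500 at 26.8 and 27.0 TPM. ZTP29-like Sobic.001G067800 was at 10.9 and 13.9 TPM and ZTP29-like Sobic.004G079700 at 77.7 and 69.4 TPM. ZIP6-like Sobic.009G057700 was at 10.7 and 8.39 TPM, and the family member Sobic.008G058700 at 62.3 and 51.5 TPM.

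The regulators and chelators of this system were near their control level. The bZIP19-like Sobic.010G267500 was at 74.1 TPM in control and 69.7 TPM in zinc limitation, and the bZIP23-like Sobic.009G182800 at 7.08 and 5.24 TPM. The abundant nicotianamine synthase NAS4-like Sobic.001G395900 was at 1970 TPM in control and 1753 TPM in zinc limitation. It was at 576 TPM in iron limitation, 2170 TPM in iron excess and 1394 TPM in zinc excess, and at 557 TPM before the transfer. Zinc efflux and storage genes, which include the HMA pumps and ZIFL carriers, had no member past 2-fold among 17 and a median of -0.14. The HMA2-like Sobic.010G250900, a pump that moves zinc towards the xylem in Arabidopsis, was at 119 TPM in control and 102 TPM in zinc limitation. YSL and OPT carriers of metal chelates (14 genes) and ferritin, vacuolar iron and NRAMP genes (10 genes) also had none past 2-fold. The 4 metallothionein and phytochelatin synthase genes summed to 11860 TPM in control and 8758 TPM in zinc limitation. Of the 3 measured, 2 lay below 0, the lowest at -0.44. One metallothionein, MT2A-like Sobic.003G071901, was at 2.96 TPM in control and 10.8 TPM in zinc limitation, but it was at 8.02 TPM in iron limitation, 15 TPM in iron excess and 8.05 TPM in zinc excess, so control was the low column.

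The iron deficiency regulators were lower as a list without any member reaching 2-fold. Of 12 genes, 10 lay below 0, and the median was -0.44 against -0.08 over all genes. The PYE-like Sobic.001G355600 was at 79.2 TPM in control and 44.3 TPM in zinc limitation. PYE is a bHLH factor of the Arabidopsis iron deficiency response. The gene was at 41.7 TPM in iron limitation, 31.3 TPM in iron excess and 98.7 TPM in zinc excess. The bHLH38-like Sobic.003G428800 was at 427 TPM in control, 266 TPM in zinc limitation, 170 TPM in iron limitation, 192 TPM in iron excess and 498 TPM in zinc excess. Both genes were highest in control and zinc excess, as was ZIP10-like Sobic.001G142900.

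The later times were set beside these values. Only 9 genes in the whole table were at least 2-fold above control at each of the 5 later times with at least 5 TPM in one column, and 5 of these were ZIP genes. None was at least 2-fold lower at each of them. At 1 h, 3 of the 9 reached 5 TPM in one column, and these lay above control by less than 2-fold; the other 6 were under that level. ZIP1-like Sobic.002G083200 went from 9.97 TPM at 1 h to 18.4 TPM at 2 d and 138 TPM at 21 d in zinc limitation, while control held 3.89 TPM at 2 d and 20.8 TPM at 21 d. ZIP5-like Sobic.007G064900 was at 131 TPM in zinc limitation and 24.9 TPM in control at 2 d. RNS3-like Sobic.002G385500, a ribonuclease gene, was at 30.7 TPM in control and 52.5 TPM in zinc limitation at 1 h. ZIP1-like Sobic.007G075700 and ZIP4-like Sobic.010G171300 were among the 6, at 1.94 and 2.65 TPM in control and 3.83 and 3.67 TPM in zinc limitation.

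ZIP4-like Sobic.009G073100 stayed above control at every time. Its level in zinc limitation was 94.2 TPM at 2 d, 84.9 TPM at 4 d, 101 TPM at 7 d, 116 TPM at 14 d and 163 TPM at 21 d. Control held 44.2, 48.4, 33.2, 44.7 and 71 TPM at these times. ZIP2-like Sobic.003G443700 did not keep its difference, with 47.9 TPM in zinc limitation and 46.2 TPM in control at 4 d and 106 against 168 TPM at 21 d. All 3 zinc-limited and all 3 control plants sampled at 1 h are, by their library names, the plants sampled again at 21 d, while the plants of 2 d to 14 d are others.

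**Figure D2:**
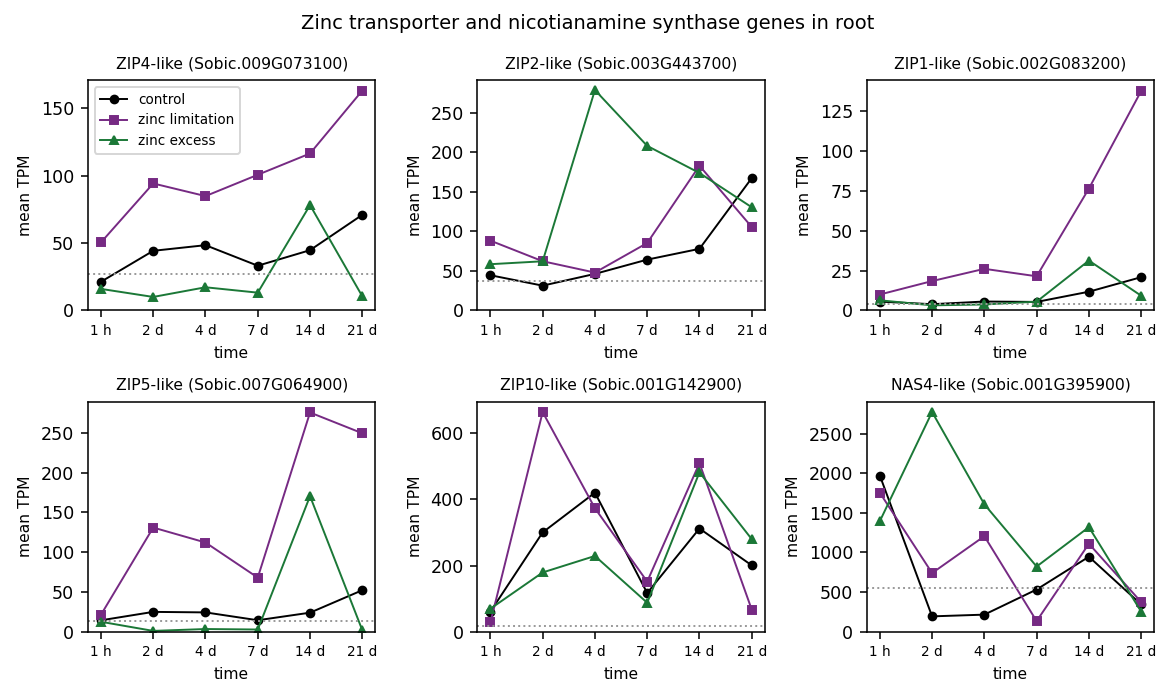
Mean TPM (y axis, from 0) over time (x axis, sampling times at equal steps) of 5 ZIP genes and a nicotianamine synthase gene in control, zinc limitation and zinc excess roots. The dotted line is the control at 0 h. ZIP4-like Sobic.009G073100 is above control in zinc limitation from 1 h on, whereas ZIP1-like and ZIP5-like genes separate from control more at 2 d and later.

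The fits with limma tested zinc limitation at 1 h over the 30 root columns after 0 h, taking each mean column as 1 observation and the scatter around additive time and treatment terms as the error. Among 20481 genes, none was called in the first fit of the 1 h effect after Benjamini-Hochberg adjustment; 21 higher and 23 lower genes (0.215%) had an unadjusted p under 0.05. CYP86B1-like Sobic.001G213300 had a fitted 1 h effect of 1.56 ± 0.63 (SE; limma adjusted p = 1), and early nodulin 75-like Sobic.007G159450 one of 1.96 ± 0.86 (adjusted p = 1). None was called in the test of the 1 h effect minus the effect at 2 d to 21 d, where 4 higher and 24 lower genes (0.137%) had an unadjusted p under 0.05. Among the latter, ZIP1-like Sobic.002G083200 differed by -1.72 ± 0.64 (limma unadjusted p = 0.0129, adjusted p = 1). That spread is between columns, not between plants. In simulated columns with the same spread at every time, 4.95% of unchanged genes had an unadjusted p under 0.05 in the first test, so that the 0.215% seen here is low. The residual SD of the additive fit was 0.282 over the 5 columns at 1 h and from 0.335 to 0.433 at the later times. A missed call therefore does not show that a gene was at its control level.

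Genes of the suberin barrier had the highest median of the 44 gene lists. Suberin is a polyester of fatty acids and phenolics laid down in endodermis and exodermis, where it limits the flow of water and ions. The list held 13 measured genes for suberin and cutin monomers and their MYB factors. Of these, 5 were at least 2-fold higher (against 0.729% of all genes), none was lower, and 12 lay above 0. The median was 0.79 against -0.08 over all genes, and the same genes had a median of -0.21 in iron limitation, 0.21 in iron excess and 0.51 in zinc excess. The list was drawn up with these values known, so its count is a description.

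GPAT5-like Sobic.009G162000, an acyltransferase for suberin monomers in Arabidopsis roots, was at 12.5 TPM in control and 32.2 TPM in zinc limitation. It was at 9.57 TPM in iron limitation, 17.7 TPM in iron excess and 27.1 TPM in zinc excess, with 15.5 TPM before the transfer. Both zinc treatments were above the other columns. CYP86A1-like Sobic.003G360600, a fatty acid hydroxylase, was at 12.5 TPM in control and 29.4 TPM in zinc limitation, and at 26.7 TPM before the transfer. CYP86B1-like Sobic.001G213300, which hydroxylates very long chain fatty acids, was at 15.6 TPM in control and 39.7 TPM in zinc limitation, with 11.1 TPM in iron limitation and 27.1 TPM in zinc excess. GPAT6-like Sobic.003G360700 was at 13.5 and 29.4 TPM in control and zinc limitation, against 31.4 TPM at 0 h, so that here control at 1 h was the low value. The MYB93-like Sobic.004G231700, related to a factor of Arabidopsis endodermis and lateral root formation, was at 17.8 and 35.5 TPM. KCS2-like Sobic.005G168700, an elongase of very long chain fatty acids, was at 14.0 and 24.9 TPM. The FAR4-like Sobic.005G063300 and MYB9-like Sobic.010G008000 were near control, at 13.9 and 15 TPM and at 5.84 and 5.42 TPM.

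Families whose members act with suberin and cuticle had medians above the -0.08 of all genes, to differing degrees. The lists of these families were drawn up after their values were seen. Of 8 measured ABCG transporters 2 were at least 2-fold higher and none lower, with a median of 0.63, and Sobic.001G413700 was at 10.4 TPM in control and 26.8 TPM in zinc limitation. The other, Sobic.003G220000, was at 2.91 and 7.03 TPM. Of 44 GDSL lipases, hydrolases of which some assemble or cut cuticle and suberin polyesters, 5 were higher and none lower. Their median was 0.23, with 31 above 0 and 13 below. Sobic.004G248500 of that family was at 18.8 TPM in control and 45.4 TPM in zinc limitation. Sobic.005G127200, Sobic.010G093300 and Sobic.004G072400 were at 3.35, 5.45 and 2.28 TPM in control and 9.12, 12.7 and 5.95 TPM in zinc limitation. Of 34 BAHD acyltransferases 19 lay above 0 and 15 below, with a median of 0.16. Past 2-fold, 3 were higher and 1 lower. The higher ones were Sobic.006G209300 at 2.68 and 9.96 TPM, Sobic.001G093000 at 5.50 and 13.4 TPM and Sobic.006G209000 at 10.7 and 24.9 TPM. The lower one, Sobic.010G259300, was at 9.35 and 1.95 TPM. Casparian strip markers had none of 5 measured genes past 2-fold and a median of -0.16. All 5 are MYB36-like, and the other genes of that list were under 5 TPM.

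Cell wall glycoprotein genes included several well-expressed higher genes. Among 64 measured early nodulin 75-like, hydroxyproline-rich and arabinogalactan genes, 10 were at least 2-fold higher and 1 was lower, with a median of 0.28. The shares over all genes were 0.729% and 1.74%, with a median of -0.08. Early nodulin 75 was named for its expression in legume root nodules. The early nodulin 75-like Sobic.007G159450 was at 28.2 TPM in control and 133 TPM in zinc limitation, a difference of 2.20. It was at 31.5 TPM in iron limitation, 45.3 TPM in iron excess and 131 TPM in zinc excess, with 38.5 TPM at 0 h. Its neighbour by identifier Sobic.007G159600 was at 36.1 TPM in control, 146 TPM in zinc limitation and 158 TPM in zinc excess. For both genes zinc limitation and zinc excess were alike, and the other 4 columns were low. The hydroxyproline-rich Sobic.002G365550 was at 128 TPM in control, 280 TPM in zinc limitation, 82.8 TPM in iron limitation and 258 TPM in zinc excess. The arabinogalactan-like Sobic.002G030800 was at 9.43 TPM in control and 39.4 TPM in zinc limitation, with 35.8 TPM in zinc excess. The hydroxyproline-rich Sobic.002G030650 was at 7.36 TPM in control, 24.1 TPM in zinc limitation, 3.75 TPM in iron limitation and 17.4 TPM in zinc excess. Several of these genes carry neighbouring identifiers, and where copies are near-identical, reads may be shared and the number of separate genes is uncertain.

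Lipid transfer and bifunctional inhibitor proteins, small secreted proteins that carry lipids in the cell wall, lay mostly above control. Of 58 measured genes 10 were at least 2-fold higher (against 0.729% of all genes) and none lower. Above 0 lay 50, and the median was 0.55 against -0.08 over all genes. The list median was 0.25 in iron limitation, 0.28 in iron excess and 0.17 in zinc excess. Sobic.006G211701 was at 55.1 TPM in control and 140 TPM in zinc limitation, with 117 TPM in iron limitation and 58.1 TPM in zinc excess. Sobic.001G144700 was at 11.2 TPM in control and 29.7 TPM in zinc limitation, with 7.45 TPM in iron limitation and 19.5 TPM in zinc excess. The pair shows that members did not share one pattern over the other columns. Sobic.004G292500 was listed at 0 in control and in iron limitation and at 7.66 TPM in zinc limitation, so no fold is given. Sobic.006G238000 was at 3.95 TPM in control and 13.6 TPM in zinc limitation, and Sobic.004G292200 at 7.68 and 22 TPM.

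Class III peroxidases, secreted enzymes that cross-link wall polymers, had 63 of 85 measured genes above 0, 5 at least 2-fold higher and 3 lower. Over all genes 38.9% lay above 0, 0.729% were higher and 1.74% lower. The list median was 0.23. Against the same control column it was 0.22 in iron limitation, 0.28 in iron excess and -0.06 in zinc excess. Sobic.002G003500 was at 17.3 TPM in control, 49.2 TPM in zinc limitation and 62.9 TPM in iron limitation. Sobic.002G416900 was at 14.5 TPM in control and 41.1 TPM in zinc limitation, and Sobic.009G145500 at 10.7 and 27.7 TPM, against 42.5 TPM at 0 h. Sobic.001G444400 was the lowest of the family, at 180 TPM in control and 25.6 TPM in zinc limitation. It was at 36.8 TPM in iron limitation, 80.1 TPM in iron excess and 93.5 TPM in zinc excess, which puts control above every other column. Of 62 expansin and xyloglucan endotransglucosylase genes 2 were higher and 1 lower. Their median was 0.185, beside 0.28 in iron limitation, 0.36 in iron excess and -0.03 in zinc excess. XTH5-like Sobic.005G140001 was at 17 TPM in control and 48.3 TPM in zinc limitation, but at 64.4 TPM at 0 h. For this gene zinc limitation lay below the level before the transfer. EXPB2-like Sobic.001G300800, a beta-expansin that loosens grass cell walls, was at 62 and 135 TPM, and EXLA1-like Sobic.001G311000 at 24.4 and 10.2 TPM. A dirigent-like gene, Sobic.006G011900, was at 106 TPM in control, 338 TPM in zinc limitation, 319 TPM in iron limitation, 320 TPM in iron excess and 122 TPM in zinc excess. Dirigent proteins steer phenolic coupling in lignan and lignin formation.

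Other large positive differences fell outside these lists. ENOD93-like Sobic.010G032000 was at 12.0 TPM in control and 43.8 TPM in zinc limitation, although both were far under the 308 TPM at 0 h. ACO1-like Sobic.003G197200, an ACC oxidase that makes ethylene, was at 64.2 TPM in control, 141 TPM in zinc limitation and 131 TPM in zinc excess, against 271 TPM at 0 h. For both genes the 1 h control was below the level before the transfer. RAP2.11-like Sobic.002G350500, an AP2/ERF factor of the Arabidopsis low-potassium response, was at 3.98 TPM in control and 13.2 TPM in zinc limitation. The aquaporin NIP1;2-like Sobic.004G102200 was at 3.54 TPM in control and 8.91 TPM in zinc limitation, but at 48.2 TPM in iron excess and 12 TPM at 0 h. The peptide CPuORF10-like Sobic.002G206750, the leader of an S-adenosylmethionine decarboxylase messenger, was at 2.25 and 33.9 TPM; it overlaps that messenger by its annotation, so its reads may belong to either. The resistance gene-like Sobic.005G223600 was at 0.583 and 9.19 TPM. The auxin-responsive gene Sobic.002G261500 was at 44.4 TPM in control, 135 TPM in zinc limitation and 133 TPM in zinc excess. Of 271 measured ribosomal protein genes 3 were at least 2-fold higher and none lower. They were the L40e gene Sobic.002G178800 at 1.20 and 6.47 TPM, the acidic protein gene Sobic.002G092400 at 0.946 and 5.15 TPM, and the S7 gene Sobic.005G139900 at 7.85 and 26.6 TPM. For the S7 gene iron excess was at 109 TPM, far above zinc limitation. Of genes with no described function, Sobic.002G349400 was listed at 0 in control and at 19 TPM in zinc limitation, and Sobic.007G158000 was at 0.995 and 7.46 TPM.

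Defence proteins were prominent among the lower genes. Of 65 measured pathogenesis-related genes 13 were at least 2-fold lower and 2 higher, against 1.74% and 0.729% of all genes. Their median of -0.15 was close to the -0.08 of all genes, and 25 of them lay above 0. The list median was 0.02 in iron limitation, 0.09 in iron excess and -0.03 in zinc excess. These are secreted or vacuolar proteins against microbes, such as osmotins, chitinases and glucanases. The osmotin-like Sobic.008G182700 was at 41.1 TPM in control and 3.83 TPM in zinc limitation, a difference of -3.12. It was at 3.29 TPM in iron limitation, 3.10 TPM in iron excess and 4.95 TPM in zinc excess, and at 0.690 TPM at 0 h. Control at 1 h was the lone high column. The osmotin-like Sobic.008G182600 was at 43 TPM in control and 12.1 TPM in zinc limitation, against 43.5 TPM at 0 h. Osmotin-like genes Sobic.008G182600, Sobic.008G182700, Sobic.008G182800 and Sobic.008G182900 carry consecutive identifiers and may share reads. OSM34-like Sobic.001G145700 was at 22.6 TPM in control and 3.73 TPM in zinc limitation.

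PR1-like Sobic.002G023300, a marker of salicylic acid responses in Arabidopsis, was at 38.6 TPM in control and 6.00 TPM in zinc limitation. It was at 16.9 TPM in iron limitation, 16.2 TPM in iron excess and 5.98 TPM in zinc excess, so both zinc treatments were low. The glucanase BG2-like Sobic.008G146700 was at 26.9 TPM in control, 7.25 TPM in zinc limitation and 8.15 TPM in zinc excess. PR4-like Sobic.005G169400 was at 8.90 and 2.29 TPM and a class IV chitinase-like gene, Sobic.006G132400, at 7.94 and 0.902 TPM. The CAP-domain PR1 relative Sobic.002G023200, next in number to the PR1-like gene, was at 7.76 TPM in control and 19.7 TPM in zinc limitation. It was higher still in the other treatments, at 27.2 TPM in iron limitation, 25.6 TPM in iron excess and 23.8 TPM in zinc excess, so control was the low column. The Barwin-related gene Sobic.010G240400, outside the list, was at 24.9 TPM in control and 2.16 TPM in zinc limitation, with 4.33, 4.72 and 3.68 TPM in iron limitation, iron excess and zinc excess. The WRKY factors, many of which act in defence, had none of 42 measured genes past 2-fold.

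Proteinase inhibitors block digestive proteases of insects and microbes. Of 21 measured genes 6 were lower (against 1.74% of all genes) and none higher. Their median was -0.35, against -0.08 over all genes. The median in zinc excess was -0.52. The Bowman-Birk inhibitor Sobic.003G085300 was at 119 TPM in control and 23.9 TPM in zinc limitation, and at 31.4 TPM in iron limitation, 52.6 TPM in iron excess and 55.3 TPM in zinc excess. CYS2-like Sobic.003G400400, a phytocystatin that inhibits cysteine proteases, was at 28.4 TPM in control, 7.80 TPM in zinc limitation and 40.5 TPM in iron excess, against 7.58 TPM at 0 h. The inhibitor genes Sobic.003G088400 and Sobic.003G111200 were at 77.3 and 11.8 TPM in control and 16.7 and 1.68 TPM in zinc limitation. A cysteine protease gene was lower as well: Sobic.010G239400, similar to maize Mir1, was at 484 TPM in control and 86.4 TPM in zinc limitation, with 218 TPM in iron limitation, 62.4 TPM in iron excess, 314 TPM in zinc excess and 54.2 TPM at 0 h. The glycine-rich wall protein genes Sobic.001G243500 and Sobic.001G243600 were at 334 and 563 TPM in control, 64.1 and 111 TPM in zinc limitation, and 206 and 430 TPM in zinc excess. Zinc excess was the second highest column at 1 h for the protease gene and for these.

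Genes of carbon starvation and senescence were the other lower group. In plants short of sugar, the SnRK1 kinase and some NAC factors take part in switching on the breakdown of proteins, lipids and amino acids. Of 34 measured genes of this kind, 8 were at least 2-fold lower (against 1.74% of all genes) and none higher. Below 0 lay 30 of them, and the median was -0.48. Against the same control column it was -0.50 in iron limitation, -0.44 in zinc excess and -0.07 in iron excess. The senescence NAC factor NAP-like Sobic.005G018500 was at 17.7 TPM in control and 2.80 TPM in zinc limitation. It was at 1.59 TPM in iron limitation, 12.7 TPM in iron excess and 4.83 TPM in zinc excess, and at 2.21 TPM at 0 h. Control and iron excess were high, and the other columns were low. THA1-like Sobic.006G147700, a threonine aldolase, was at 11.5 TPM in control, 1.58 TPM in zinc limitation and 10.9 TPM in iron excess. Isocitrate lyase ICL-like Sobic.002G324000, of the glyoxylate cycle, was at 5.87 TPM in control and 0.986 TPM in zinc limitation, with 0.214 TPM in iron limitation, 2.41 TPM in iron excess and 0.875 TPM in zinc excess. AGT1-like Sobic.007G213700, an aminotransferase of photorespiration, was at 13.8 and 2.5 TPM.

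PPDK-like Sobic.001G326900, pyruvate orthophosphate dikinase, was at 69.5 TPM in control and 6.79 TPM in zinc limitation. It was at 15.4 TPM in iron limitation, 19.1 TPM in iron excess and 38 TPM in zinc excess, and the other PPDK-like gene, Sobic.009G132900, was at 54.7 TPM in control and 101 TPM in zinc limitation. The pair differed from control in opposite directions. AKINBETA1-like Sobic.009G180200, a subunit of the SnRK1 kinase, was at 50.4 TPM in control and 15.5 TPM in zinc limitation, with 59.6 TPM in iron excess. TPS11-like Sobic.004G325900, of trehalose phosphate metabolism, was at 125 TPM in control, 53.2 TPM in zinc limitation and 200 TPM in iron excess. The asparagine synthetase ASN1-like Sobic.001G406800, also known as a dark-induced gene, was not lower, at 281 TPM in control and 311 TPM in zinc limitation. The catalase CAT1-like Sobic.004G011566, which breaks down hydrogen peroxide, was at 87.4 TPM in control, 18.5 TPM in zinc limitation, 19 TPM in iron limitation, 95.7 TPM in iron excess and 17.2 TPM in zinc excess.

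Photosynthesis genes lay below control beside these groups, with 7 of 8 measured genes below 0 and 2 at least 2-fold lower. PSAF-like Sobic.001G070500 was at 10.8 TPM in control, 3.11 TPM in zinc limitation, 2.73 TPM in iron limitation and 26.9 TPM in iron excess. PSBR-like Sobic.002G032700 was at 8.78 TPM in control and 2.18 TPM in zinc limitation. Their part in the lower starvation and defence genes was not tested. KOR2-like Sobic.K044400, related to the KORRIGAN endoglucanase of cellulose synthesis, was at 49.4 TPM in control and 4.48 TPM in zinc limitation, and at 133 TPM in iron excess. SERK2-like Sobic.005G126200, a receptor kinase, was at 35.7 TPM in control, 3.39 TPM in zinc limitation and 3.38 TPM in iron limitation. The MATE transporter gene Sobic.009G224800 was at 47.7 TPM in control, 6.06 TPM in zinc limitation and 5.25 TPM in iron excess. PLDALPHA1-like Sobic.008G183400, a phospholipase D, was at 45.5 TPM in control, 7.62 TPM in zinc limitation and 4.76 TPM in iron excess. Both were lowest in iron excess. Sobic.004G187300, a weakly described gene, was at 10.7 and 1.17 TPM. Of undescribed genes, Sobic.003G356400 was at 14.5 and 0.922 TPM, and Sobic.006G235900 at 12.2 TPM in control and listed at 0 in zinc limitation. Cytochrome P450 genes, oxidases of many pathways, had 6 of 100 higher and 7 lower, against 0.729% and 1.74% of all genes. The higher ones include the CYP86B1-like, CYP86A1-like and CYP86A4-like genes already counted in the suberin list. CYP89A6-like Sobic.001G137900 was at 1.53 and 5.27 TPM, CYP93D1-like Sobic.002G000400 at 7.05 and 1.41 TPM and CYP78A9-like Sobic.002G272700 at 29.4 and 10.8 TPM. Glutathione transferases, detoxifying enzymes, had 2 of 50 lower and none higher, GSTF13-like Sobic.003G164800 at 5.04 and 1.93 TPM and GSTU7-like Sobic.003G426300 at 5.54 and 2.24 TPM. PAP10-like Sobic.008G189500, a purple acid phosphatase, was at 7.30 and 2.94 TPM. At 0 h the PLDALPHA1-like, CYP93D1-like, CYP78A9-like, GSTU7-like and PAP10-like genes were at 3.63, 0.728, 7.64, 1.49 and 1.82 TPM, each below its level in zinc limitation at 1 h.

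Few transcription factors were past 2-fold. Of 855 measured genes with a factor family in the table, 3 were at least 2-fold higher (0.351% against 0.729% of all genes) and 22 lower (2.57% against 1.74%), shares near those of all genes. The NAC family had 3 of its 42 listed genes lower and none higher, namely the NAP-like gene, NAC025-like Sobic.008G021800 at 13 TPM in control and 2.18 TPM in zinc limitation, and NAC047-like Sobic.001G385800 at 17.3 and 5.61 TPM, the last against 4.95 TPM at 0 h. RAP2.6L-like Sobic.007G188701, an AP2/ERF factor, was at 11.3 and 1.94 TPM, and RVE2-like Sobic.004G279300, a MYB-related factor of the clock family, at 5.34 and 2.12 TPM, against 1.16 TPM at 0 h. The MYB48-like Sobic.009G016600 was the most abundant of those named here, at 599 TPM in control and 258 TPM in zinc limitation. Heat shock genes had 1 of 90 past 2-fold, HSP70-like Sobic.001G420100, at 101 TPM in control and 48.4 TPM in zinc limitation but 213 TPM in zinc excess and 25.9 TPM at 0 h. Nitrate genes (22) and jasmonate genes (27) had none past 2-fold.

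**Figure D3:**
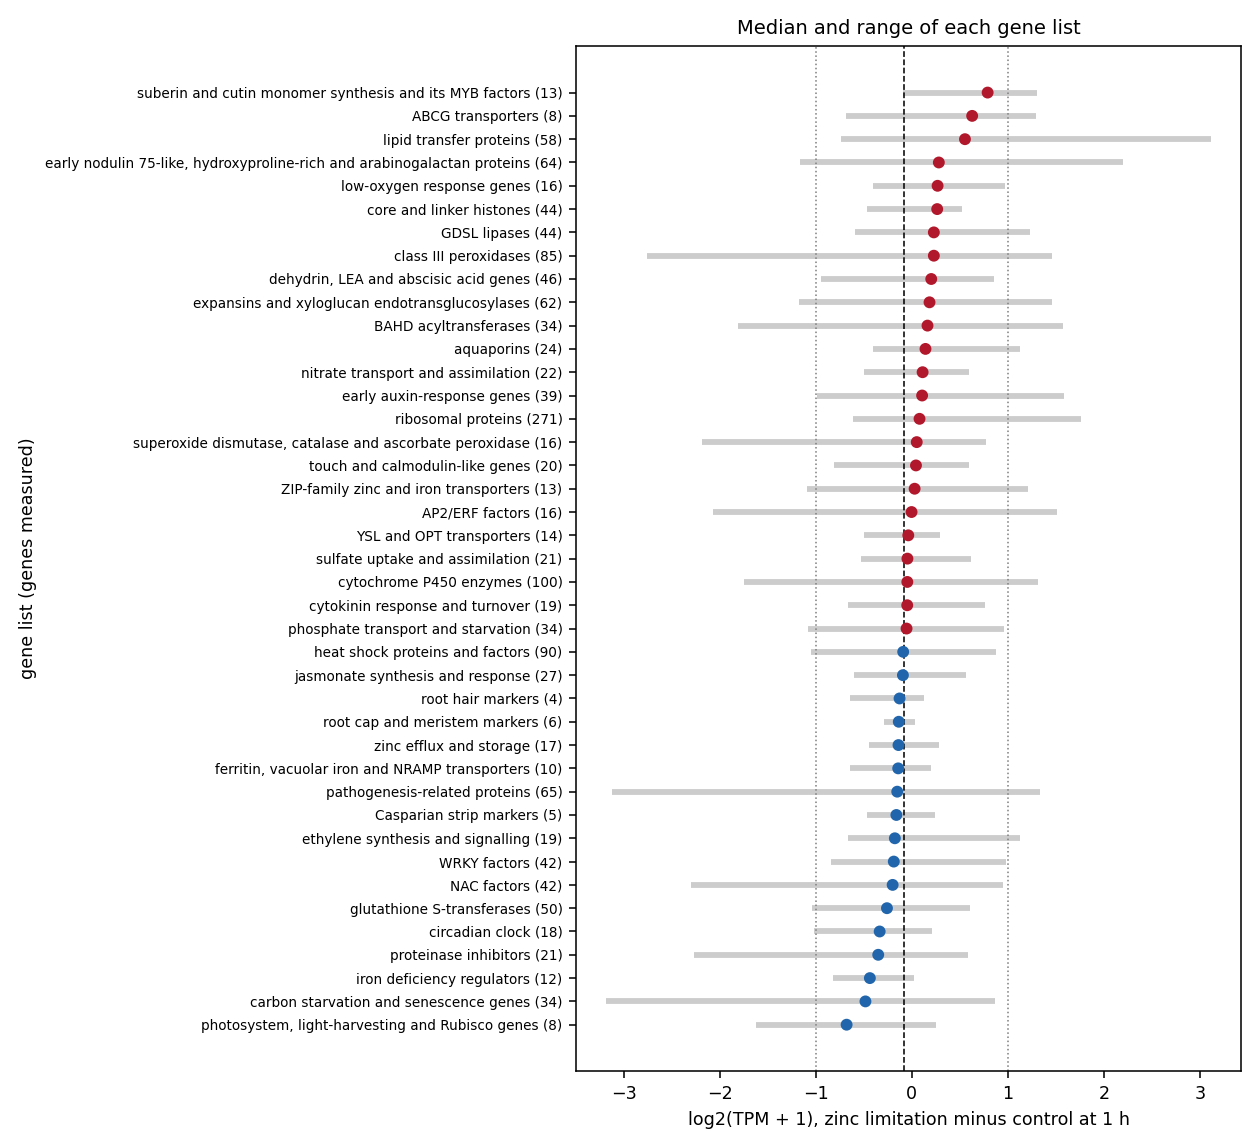
Median (point) and range (grey bar) of log2(TPM + 1), zinc limitation minus control at 1 h (x axis), for each gene list with at least 4 measured genes (y axis, number in brackets). The dashed line is the median over all genes at -0.08 and the dotted lines mark 2-fold. Suberin genes have the highest median, 0.79, and photosystem genes the lowest, -0.68.

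All 4 treatments at 1 h were set against the same control column, so each comparison contains that column's own deviation. Iron limitation had 80 genes higher and 333 lower, iron excess 197 and 259, and zinc excess 210 and 134. Of the 116 higher genes, zinc limitation was the highest of the 5 columns for 86 and control was the lowest for 58. Zinc limitation and zinc excess were the top 2 columns for 54 of them. Of the 277 lower genes, zinc limitation was the lowest column for 126 and control the highest for 153. Control and iron excess were the top 2 columns for 178 of the 277. Against the mean of the other 3 treatments in place of control, 27 genes (0.172%) were at least 2-fold higher and 39 (0.249%) lower, and 26 of the 116 and 24 of the 277 kept their call and the 5 TPM filter there. Zinc limitation differed from zinc excess directly by 74 higher and 272 lower genes of 15966.

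**Figure D4:**
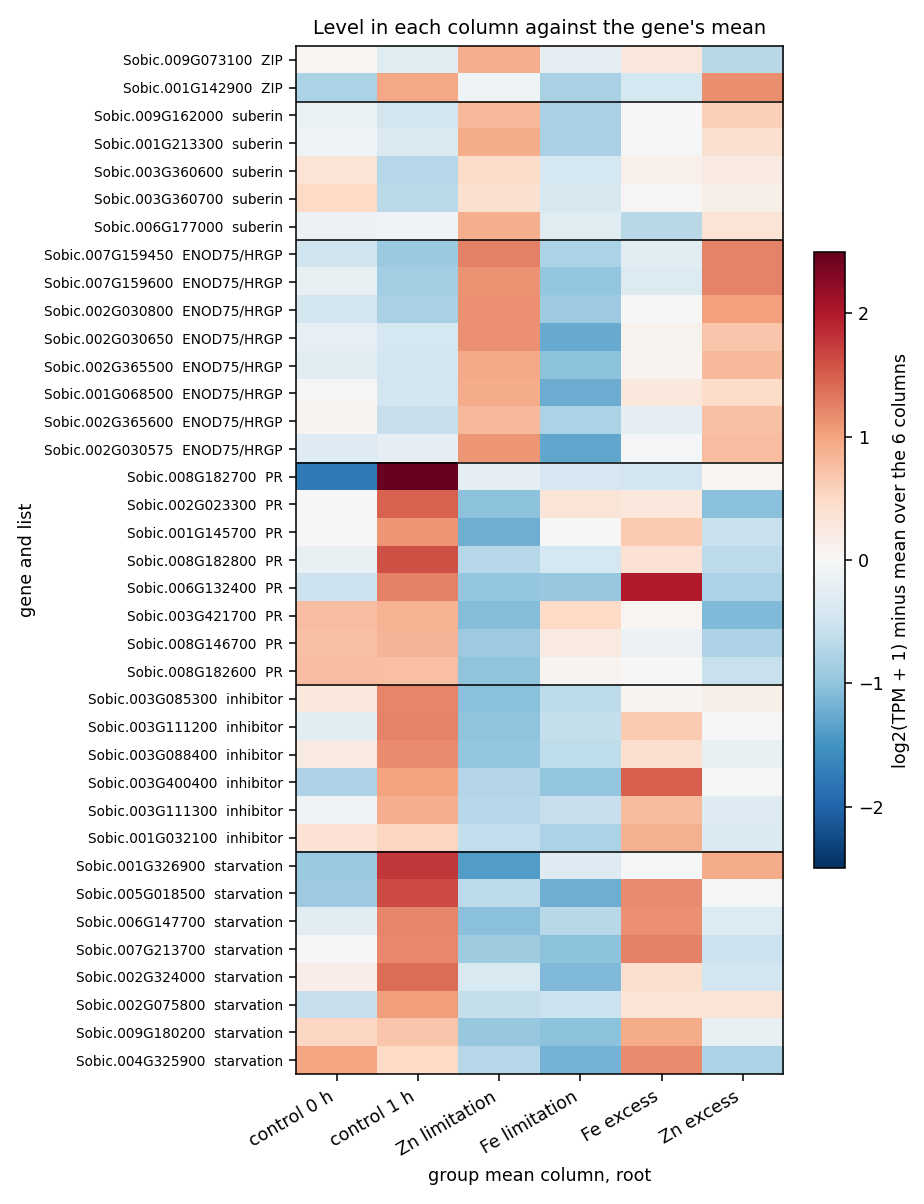
Level of genes past 2-fold in 6 lists (rows, up to 8 per list) in the root columns at 0 h and 1 h (columns), as log2(TPM + 1) minus the gene's mean over the 6 columns. Red is above and blue below that mean. Early nodulin 75-like and hydroxyproline-rich genes are red in zinc limitation and zinc excess and blue in iron limitation, while inhibitor and starvation genes are red in control and mostly in iron excess.

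The 1 h differences were compared with those of zinc limitation at later times, which rest on other control columns. Of the 277 genes lower at 1 h, 103 of 229 with 5 TPM in one column were at least 2-fold lower at 2 d (45%, against 5.97% of all genes), 117 of 253 at 4 d (46.2% against 8.10%) and 119 of 245 at 7 d (48.6% against 2.91%). At 14 d the direction turned, with 112 of 256 genes at least 2-fold higher (43.8% against 6.73%) and 37 lower (14.5% against 4.00%). In the other treatments too, more of the 277 were higher than lower against the same 14 d control. Higher were 25.8% in iron limitation (against 2.95%), 38.2% in iron excess (against 4.6%) and 24.4% in zinc excess (against 4.65%). Lower were 5.33% (against 2.66%), 7.88% (against 4.75%) and 19.5% (against 2.25%) in the same order. At 21 d, 55 of 232 were higher in zinc limitation (23.7% against 5.25%) and 17 lower (7.33% against 1.91%). Against that control, 38.1% were higher in iron limitation (against 2.34%), 17.3% in iron excess (against 1.1%) and 49% in zinc excess (against 7.53%). Lower were 1.62% (against 0.857%), 7.08% (against 5.12%) and 3.73% (against 11.5%). NAP-like Sobic.005G018500 was at 55.4 TPM in control and 3.46 TPM in zinc limitation at 4 d, and CAT1-like Sobic.004G011566 at 363 and 5.10 TPM. By 14 d NAP-like was at 3.19 TPM in control and 7.06 TPM in zinc limitation. It was at 7.97 TPM in iron limitation, 5.18 TPM in iron excess and 6.94 TPM in zinc excess. Osmotin-like Sobic.008G182700 was at 3.88 TPM in control and 140 TPM in zinc limitation at 14 d, the opposite of 1 h. At 14 d it was at 33.9 TPM in iron limitation, 266 TPM in iron excess and 257 TPM in zinc excess. Control at 14 d was thus its lone low column, as control at 1 h was its lone high one.

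Of the 116 genes higher at 1 h, 36 of 70 were at least 2-fold higher at 2 d (51.4% against 11.9%) and 58 of 87 at 4 d (66.7% against 9.53%), and 1 was lower at each of these times. At 7 d, 8 of 84 were higher (9.52% against 1.45%) and 13 lower (15.5% against 2.91%). At 14 d, 18 of 91 were higher (19.8% against 6.73%) and 16 lower (17.6% against 4.00%). At 21 d, 10 of 82 were higher (12.2% against 5.25%) and 1 was lower (1.22% against 1.91%). Early nodulin 75-like Sobic.007G159450 was at 7.49 TPM in control and 56.8 TPM in zinc limitation at 4 d, and at 47.5 and 36.3 TPM at 7 d. GPAT5-like Sobic.009G162000 was at 1.43 and 12.3 TPM at 4 d.

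At 2 d iron limitation stood apart. Of the 277 genes, 7.79% of those measured were lower in iron limitation (against 5.63% of all genes) and 17.3% higher (against 3.77%). In iron excess 38.9% were lower (against 6.7%) and in zinc excess 59.4% (against 12.4%). Of the 116 genes, 11.3% were higher in iron limitation (against 3.77%) and 18.9% lower (against 5.63%). In iron excess 66.2% were higher (against 17.3%) and in zinc excess 65.1% (against 21.5%). The other treatments at 4 d were set against the same control column. Of those of the 116 genes with 5 TPM in one column, 47 of 79 were higher in iron limitation (59.5% against 10.9% of all genes), 53 of 78 in iron excess (67.9% against 10.4%) and 48 of 72 in zinc excess (66.7% against 11%). Of the 277 genes, 166 of 246 measured were lower in iron limitation (67.5% against 6.69%), 127 of 250 in iron excess (50.8% against 6.02%) and 134 of 253 in zinc excess (53% against 5.24%). The control columns themselves differed in these genes: the median level of the 277 was 9.13 TPM in control at 0 h, 16.1 TPM at 1 h, 38 TPM at 4 d and 13.5 TPM at 14 d. The median of the 116 was 12.6, 7.34, 2.73 and 12.1 TPM in these columns. At 7 d, where 119 of 245 measured genes of the 277 were lower in zinc limitation, 48 of 249 were lower in iron limitation (19.3% against 3.31% of all genes), 27 of 245 in iron excess (11% against 4.00%) and 39 of 260 in zinc excess (15% against 1.55%). The difference between these shares was not tested. In the iron excess column at 7 d 35.5% of the TPM lay in 10 genes, against 4.27% to 7.74% in the other root columns. The labels give 2 libraries for iron excess and 5 for zinc excess at 7 d, while the decimal steps of the means fit 3 and 4. For zinc excess at 2 d the labels give 2 libraries and the steps fit 3. The part of the control columns in these shares was not tested.

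**Figure D5:**
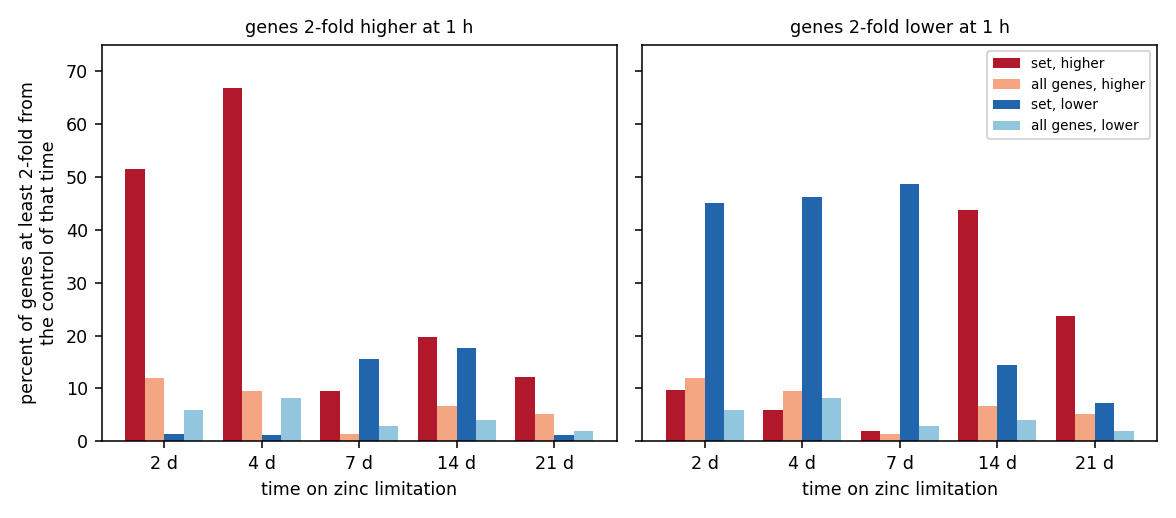
Percent of genes at least 2-fold higher or lower than the control of the same time in zinc limitation (y axis) at 2 d to 21 d (x axis). The left panel holds the 116 genes higher at 1 h and the right panel the 277 genes lower at 1 h, each beside all genes of that comparison. From 45% to 48.6% of the measured lower genes were lower again up to 7 d, and 43.8% were higher at 14 d.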

How the data were processed

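Root and leaf RNA was poly-A selected and sequenced as directional paired-end libraries, per the labels' protocols. DRAGEN is named in the submitters' processing notes, without a version. Genome build and annotation: not given in the sources used here. Mean TPM was deposited by the authors per tissue, time and treatment, with 57 columns over 34129 genes after 795 repeated rows were dropped. With the repeats, every deposited root column sums to more than 1000000; 8 columns that exceed a limit on TPM sums, among them control and zinc excess at 1 h, were entered as signal, but hold the authors' mean TPM like the rest. TPM keeps no depth, so the depth is unknown and no interval is given. The values are means with no replicates, so no SD is given.

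Mean TPM was taken as log2(TPM + 1), and genes with 5 TPM in one of the 2 columns were compared. limma 3.58.1 (R 4.3.3, trend on) was fitted to 30 root columns with time and treatment terms and 1 term for the zinc limitation column at 1 h, over genes with a mean of 1 TPM, with Benjamini-Hochberg adjustment and a threshold of 0.05. On simulated columns it recovered 130 of 200 genes changed by 2 on the log2 scale in the zinc limitation column at 1 h and 11 of 200 changed by 1, among 20371 and 20356 genes, for the test against the expected control level. Its error is the scatter between columns, which includes differences in treatment effect between times.

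Gene names are those of the closest Arabidopsis gene in the deposited table, written as X-like. Members, lists and named genes were chosen with earlier results of these data known, and the suberin, starvation, pathogenesis-related, inhibitor, lipid transfer, glycoprotein, ABCG, GDSL and BAHD lists after their values were seen; genes whose annotation went against a list were taken out by that annotation. Genes were named by size: the 12 largest described differences each way, up to 4 members past 2-fold per list, up to 2 undescribed genes each way, the values at the threshold, and the ZIP, bZIP and nicotianamine genes at 5 TPM. Others in the text were picked after their values were seen. No sequences are printed.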

Additional observations from a re-analysis of the deposited data

How the results depend on the processing

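Against 116 higher and 277 lower genes, 52 and 131 were past 2-fold with a pseudocount of 5 TPM, 57 and 123 with a filter at 20 TPM, and 27 and 39 against the mean of the other 3 treatments at 1 h. Against the control at 0 h, 549 were higher and 397 lower. The control at 1 h had 822 higher and 323 lower against the same column. With limma, leaving out the filter on TPM gave 35 calls of the 1 h effect and 34 of its difference from later times, all higher; the cause was not tested. Every other alternative run gave 0 limma calls in both directions, including 5 chosen after seeing the data (without the 2 d and 4 d columns, without the control column at 1 h, without the control columns at 2 d and 4 d, without the iron excess column at 7 d, and the 5 columns at 1 h only). With the 5 columns at 1 h, 85 higher and 101 lower genes had an unadjusted p under 0.05.

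A change of pseudocount or filter cannot turn the direction of a gene, so those settings are no check of it. Of the 126 genes named here with at least 5 TPM at 1 h, 124 kept their direction with rescaled columns. Against the other 3 treatments 113 did, and against the control at 0 h 94 did. Of the 44 list medians, 36, 28 and 18 kept their sign under these 3 settings, in that order. Among genes past 2-fold, direction turned against the other 3 treatments for Sobic.002G023200 (-0.36), Sobic.002G324000 (0.004), Sobic.004G102200 (-0.17), Sobic.005G139900 (-1.10) and Sobic.008G182700 (0.036). It turned against the control at 0 h for Sobic.001G142900 (0.67), Sobic.001G385800 (0.15), Sobic.001G420100 (0.88), Sobic.002G000400 (0.48), Sobic.002G272700 (0.45), Sobic.003G197200 (-0.94), Sobic.003G356400 (0.15), Sobic.003G360700 (-0.092), Sobic.003G400400 (0.037), Sobic.003G426300 (0.38), Sobic.004G102200 (-0.39), Sobic.004G279300 (0.53), Sobic.005G018500 (0.24), Sobic.005G140001 (-0.41), Sobic.007G140700 (0.63), Sobic.008G182700 (1.52), Sobic.008G183400 (0.90), Sobic.008G189500 (0.48), Sobic.009G145500 (-0.60), Sobic.010G032000 (-2.79) and Sobic.010G239400 (0.66), and Sobic.006G235900 was listed at 0 in both.

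No paired analysis was possible because the deposited means carry no replicate numbers. No replicate was left out, for the same reason. Depth is unknown, and genes under 10 TPM rest on values of unknown precision.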
